A study of Homo sapiens with 30 samples.

Results

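The microexons described here are cassette exons of 3 to 27 nucleotides that were listed as skipped-exon events in any of 4 splicing tables and averaged 10 or more junction reads a library in both arms of that table. The rule used length and coverage, and not the change between arms. It held for 884 events of the table for day 0 (D0), 687 for day 4 (D4), 965 for day 8 (D8) and 456 for 293T. An exon with different neighbouring exons was listed as several events, so these are 1294 distinct events on 975 exons of 825 genes. The whole series holds 79305 longer exons with the same coverage. Another 235, 217, 261 and 272 short events of the D0, D4, D8 and 293T tables stayed below the read minimum and were not used.

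The series profiled Hues6 human embryonic stem cells, an established line, wild type (WT) or labelled as knockout (KO) for QKI, in 3 libraries per genotype at D0, D4 and D8 of differentiation to cardiomyocytes. Differentiation was started with BMP4 at 1.5 ng/mL in both genotypes and with CHIR, a GSK3 inhibitor that switches on WNT signalling, at 1.5 uM in WT and 1.25 uM in KO, so genotype and CHIR dose cannot be told apart after D0. Nuclear RNA of both genotypes at D8 gave 3 libraries each, and 293T embryonic kidney cells were transfected at 10 uM with siRNA, either a control or one that targets QKI, with 3 libraries each. All RNA was polyadenylated; the labels name neither the QKI allele nor the number of clones, and do not say whether libraries of a group were separate cultures, so the p-values here speak only of the scatter among these libraries, which may be technical.

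Microexons encode a few amino acids at most and often keep the reading frame. They are short for the splicing machinery, which normally recognises both ends of an exon together, and many depend on enhancers in the neighbouring introns. In neurons the SR-related protein SRRM4 includes a large programme of them, while RBFOX, PTBP1, MBNL and QKI proteins act on overlapping sets in brain and muscle. QKI binds ACUAA-type RNA elements and is known for promoting or repressing cassette exons according to where it binds. The study asked how it acts on splicing as heart cells form.

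The microexons to which the results return are printed here from GENCODE 29 transcripts, found by gene, exon length and the lengths of both flanking introns. Capitals mark the microexon and lower case the 15 nucleotides of spliced exon on either side. They were chosen because they were called in several tables, belong to a pair of related genes, or changed most at D8.
DST: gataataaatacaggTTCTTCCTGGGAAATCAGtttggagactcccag
MACF1: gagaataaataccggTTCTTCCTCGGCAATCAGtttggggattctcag
CLASP2: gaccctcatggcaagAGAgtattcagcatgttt
CLASP1, 3 nt: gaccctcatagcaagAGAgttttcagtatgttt
CLASP1, 24 nt: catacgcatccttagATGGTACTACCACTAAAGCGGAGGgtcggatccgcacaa
NAV1: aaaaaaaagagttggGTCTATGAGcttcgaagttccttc
NAV2: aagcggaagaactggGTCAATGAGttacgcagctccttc
VPS29: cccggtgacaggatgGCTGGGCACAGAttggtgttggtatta
PICALM: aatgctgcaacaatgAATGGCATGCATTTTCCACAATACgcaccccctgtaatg
ROBO1: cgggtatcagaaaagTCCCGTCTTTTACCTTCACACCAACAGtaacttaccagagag
SLC8A1: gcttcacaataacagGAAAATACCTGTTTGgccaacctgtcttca
MEF2D: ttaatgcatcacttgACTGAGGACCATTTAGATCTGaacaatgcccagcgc
TNNT2: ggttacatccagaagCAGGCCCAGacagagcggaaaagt
SRC: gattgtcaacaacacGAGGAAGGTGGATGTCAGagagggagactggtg
In hg19, the build named in the submitters' processing notes, these exons lie at chr6:56333780-56333797 (DST, minus strand), chr1:39930767-39930784 (MACF1, plus), chr3:33605456-33605458 (CLASP2, minus), chr2:122159444-122159446 and chr2:122202515-122202538 (CLASP1, minus), chr1:201773617-201773625 (NAV1, plus), chr11:20104138-20104146 (NAV2, plus), chr12:110937340-110937351 (VPS29, minus), chr11:85689113-85689136 (PICALM, minus), chr3:78696779-78696805 (ROBO1, minus), chr2:40401846-40401860 (SLC8A1, minus), chr1:156446286-156446306 (MEF2D, minus), chr1:201331514-201331522 (TNNT2, minus) and chr20:36014863-36014880 (SRC, plus). All are internal coding exons of the matched transcripts.

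Each splicing table sets 3 libraries, the first arm, against another 3, the second arm, without saying which samples they are, and the D8 table does not say whether its libraries are whole-cell or nuclear. Arms are therefore called first and second throughout, and differences are second minus first. QKI junction reads, scaled to the total of each arm, stood in the second arm at 4.18 to 8.24% of the first over 4 QKI events at D0, at 17.1 to 55.1% over 7 at D4 and at 15.6 to 24.4% over 4 in 293T. At D8 the 12 QKI events ranged from 13.6 to 186% (median 93.2%). In the gene counts, QKI was at 286 to 300 CPM (counts scaled to the library total) in the D0 WT libraries and 35.5 to 41.3 in KO, and at 139 to 156 and 68.2 to 88.5 at D4. At D8 the range was 285 to 368 in WT, and 329 to 340 for those labelled KO. In nuclear RNA the libraries labelled KO held 473 to 534 and WT 139 to 187. Gene-level totals ran from 40001076 to 89948185 counts per whole-cell library and from 6549676 to 15030590 per nuclear library.

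Microexons differed between arms in every table, in both directions. An event was called where the FDR in the authors' deposited table was under 0.05, inclusion (the share of transcripts that keep the exon, from 0 to 1) differed by at least 0.1 and the read minimum held. At D0, 31 microexon events (3.51%) were higher and 35 (3.96%) lower in the second arm, against 1.06% and 1.31% of all 78672 events. At D4, 20 (2.91%) were higher and 13 (1.89%) lower, against 0.558% and 0.539% of 58983 events. At D8, 69 (7.15%) were higher and 45 (4.66%) lower, against 1.21% and 1.02% of 79117 events. In 293T, 16 (3.51%) were higher and 7 (1.54%) lower, against 0.275% and 0.175% of 45021 events. The median difference of all microexon events was 0 at D0 and D8 and 0.001 at D4 and in 293T, beside 0 for all events in each table. The called microexons had a median size of difference of 0.231 (D0), 0.281 (D4), 0.233 (D8) and 0.224 (293T). In the same order, the libraries of the arms did not overlap in 63 of 66, 33 of 33, 107 of 114 and 23 of 23 called microexon events. Arms without overlap, as given below for single exons, are thus usual among called events and no added support.

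A second test on inclusion per library, limma on the logit scale, called fewer: 17 microexon events (D0), 7 (D4), 34 (D8) and 9 (293T), where it called 0.278%, 0.122%, 0.499% and 0.116% of all events. edgeR's quasi-likelihood test on the inclusion and skipping counts called 24, 19, 65 and 15 microexon events, and 0.24%, 0.29%, 0.818% and 0.198% of all events. Of these, 24, 19, 64 and 15 were among the events called from the deposited FDR. The adjusted p of this count test is given below as "edgeR adjusted p".

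Shares called were highest in the shortest class, 3 to 9 nucleotides, at D4 and D8, and at 10 to 18 nucleotides at D0 and in 293T. At D8, 20.7% of the 82 events of 3 to 9 nucleotides were called, 12.4% of 242 of 10 to 18 and 10.5% of 641 of 19 to 27, against 5.38% of 4762 of 28 to 51, 2.22% of 25346 of 52 to 100 and 2% of 9532 longer than 200. At D4 the classes of 3 to 9, 10 to 18 and 19 to 27 nucleotides stood at 12.7%, 5.14% and 3.72%. At D0 they stood at 7.25%, 8.62% and 7.03%, and in 293T at 2.86%, 7.96% and 4.22%, the first of these from 1 of 35 events. Just inside the upper limit, events of 25 to 27 nucleotides were called in 6.95%, 3.15%, 8.81% and 3.76% of cases at D0, D4, D8 and in 293T. Just outside it, events of 28 to 30 nucleotides were called in 2.97%, 2.31%, 4.76% and 0.629%.

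Microexons were also more often at intermediate inclusion, where a change of 0.1 is possible in either direction. Mean inclusion in the first arm was from 0.1 to 0.9 in 24.7% (D0), 24.9% (D4), 25.6% (D8) and 22.8% (293T) of microexon events, and in 13.5%, 13.7%, 12.3% and 13.1% of longer exons. Among these events alone, 20.6% of microexons and 12.1% of longer exons were called at D0, 14.6% and 5.4% at D4, 32.4% and 12.7% at D8, and 12.5% and 2.24% in 293T. The remaining microexons were mostly near an end of the scale: at D8, 272 events were under 0.1 and 446 over 0.9 in the first arm.

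**Figure D1:**
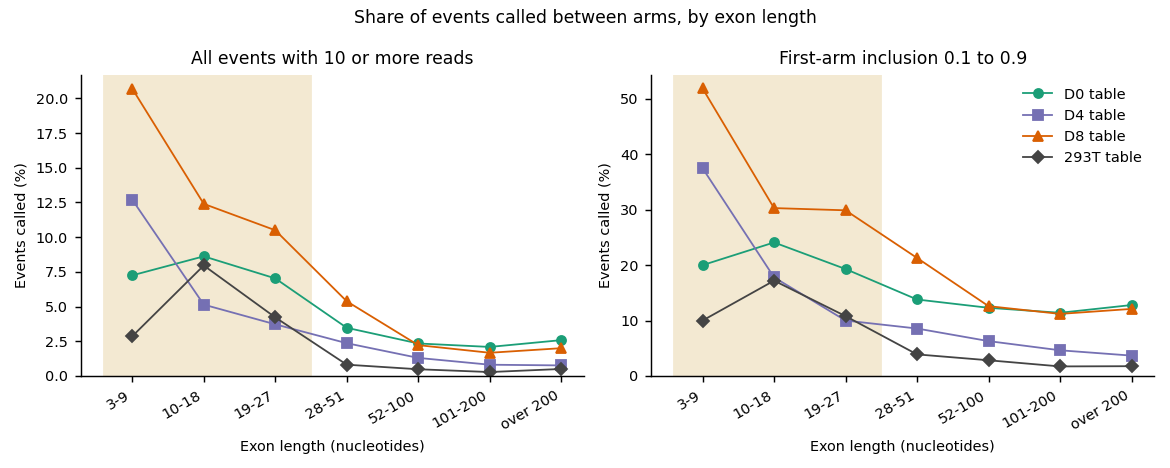
Share of events called between the 2 arms (percent, y axis) by exon length (nucleotides, x axis) in the 4 tables, for all events with at least 10 reads (left) and for those with inclusion from 0.1 to 0.9 in the first arm (right). Shading marks microexons; at D8 the share was 20.7% at 3 to 9 nucleotides and 2.22% at 52 to 100.

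The called microexons mostly preserved the reading frame. Of 975 microexons, 623 (63.9%) had a length that is a multiple of 3, against 40.2% of the longer exons. With 1 event per exon, that with most junction reads, 140 microexons of 127 genes were called in at least 1 table, and 119 of them (85%) were multiples of 3. Of the 835 microexons not called, 504 (60.4%) were. Among the coding microexons the shares were 109 of 122 called (89.3%) and 508 of all 731 (69.5%). Longer exons, here counted as called where any of their events was, were multiples of 3 in 49.8% of called cases. By annotation, 731 microexons were coding, 33 partly coding, 47 in a 5′ UTR, 10 in a 3′ UTR and 68 noncoding, and 86 had no matching transcript. Called members numbered 122 of the coding (16.7%), 6 of the partly coding (18.2%), 4 of the 5′ UTR (8.51%), 1 of the 3′ UTR (10%) and 1 of the noncoding exons (1.47%), and 6 of those with no match (6.98%). The most common lengths were 27 nucleotides with 161 exons and 24 with 121.

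Most called exons, 99 of 140, were called in 1 table, 22 in 2, 12 in 3 and 7 in all 4. Of the 22 called in 2 tables, 12 were higher and 8 lower in both, and 2 changed direction. Among the 12 exons called in 3 tables, 8 were higher each time and 4 lower, and among the 7 exons called in every table, 4 were higher and 3 lower. D0 and D4 shared 20 calls, 41.7% of the D0 and 66.7% of the D4 calls among exons measured in both. D4 and D8 shared 23, which were 71.9% of the D4 and 29.1% of the D8 calls. D0 and D8 shared 25, which were 49% of the D0 and 32.9% of the D8 calls, and 23 of these had the same direction. The 293T table shared 10 calls with D0, 12 with D4 and 10 with D8, which were 47.6%, 54.5% and 45.5% of its own. All of these 293T calls had the same direction in both tables. Matching shares over longer exons are not given here.

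A pair of related cytoskeletal linkers changed in all 4 tables in opposite directions. DST (dystonin) and MACF1 are spectraplakins, giant proteins that tie actin filaments to microtubules, and each has an 18-nucleotide microexon of near-identical sequence. In the DST exon, inclusion at D0 was 0.239, 0.218 and 0.218 in the first arm and 0, 0.00843 and 0 in the second. At D4 it was 0.367, 0.377 and 0.322 against 0.00801, 0.00442 and 0. At D8 it was 0.668, 0.683 and 0.679 against 0.0461, 0.0451 and 0.067. In 293T it was 0.709, 0.58 and 0.798 against 0.197, 0.141 and 0.118. The arms did not overlap in any table, and the second arm was the lower by 0.222, 0.351, 0.624 and 0.544, with edgeR adjusted p of 5.2e-10, 5.2e-17, 7.1e-23 and 4.2e-12.

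The MACF1 exon moved the other way in the same libraries. Inclusion at D0 was 0.244, 0.249 and 0.263 in the first arm and 0.568, 0.603 and 0.553 in the second. At D4 it was 0.29, 0.283 and 0.252 against 0.778, 0.763 and 0.8. At D8 it was 0.598, 0.596 and 0.532 against 0.915, 0.928 and 0.901. In 293T it was 0.173, 0.0726 and 0.174 against 0.412, 0.292 and 0.286. The arms did not overlap, and the second arm of MACF1 was higher by 0.323, 0.505, 0.339 and 0.19, with edgeR adjusted p of 0.00051, 3.4e-16, 3.4e-10 and 0.122. A second MACF1 microexon, of 9 nucleotides, was also higher in the second arm at D4 (0.117) and D8 (0.316).

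The printed 48-nucleotide windows of MACF1 and DST are 85.4% identical. Within the microexon 16 of 18 bases are shared, and the differences from MACF1 to DST, counted from 1 at the 5′ end of the microexon, are C9G and C12A. The introns beside these exons, and any QKI binding sites in them, were not analysed here.

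CLASP1 and CLASP2, which stabilise the growing ends of microtubules, gave another related pair, with both exons called at D8 alone. Both hold a 3-nucleotide microexon, AGA in each, in windows that are 90.9% identical. The CLASP2 exon was lower in the second arm in every table. At D0 the libraries stood at 0.246, 0.288 and 0.309 in the first arm and 0.0901, 0.0958 and 0.0806 in the second, at D4 at 0.39, 0.484 and 0.593 against 0.0405, 0.0429 and 0.0304. At D8 they stood at 0.696, 0.632 and 0.603 against 0.0958, 0.109 and 0.0649, and in 293T at 0.797, 0.839 and 0.873 against 0.604, 0.473 and 0.329. No arms overlapped. The edgeR adjusted p for CLASP2 was 6e-06 at D4 and 7e-10 at D8. It was 0.054 at D0 and 0.0867 in 293T, above the threshold of 0.05.

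The CLASP1 copy was mostly included, with arm means from 0.826 to 0.986 over D0, D4 and D8. It was not among the microexon events used in 293T. It was called at D8, at 0.828, 0.779 and 0.871 in the first arm and 0.936, 0.926 and 0.94 in the second, a difference of 0.108 (edgeR adjusted p 0.383). At D4 the CLASP1 copy was higher by 0.07, below the size a call needs, and at D0 by 0.002. CLASP1 also has a 24-nucleotide microexon that was nearly absent from the first arm at D0 and D4. For this exon, CLASP1 inclusion at D0 was 0.018, 0 and 0 in the first arm and 0.584, 0.61 and 0.615 in the second (edgeR adjusted p 2.5e-18). At D4 it was 0, 0 and 0.0703 against 0.57, 0.623 and 0.756 (edgeR adjusted p 1.1e-10), and at D8 0.264, 0.295 and 0.169 against 0.663, 0.719 and 0.783 (edgeR adjusted p 9.2e-07). The arms of the D0, D4 and D8 tables were far apart. In 293T the difference of this exon was 0.029 and was not called. A 27-nucleotide CLASP1 microexon was higher in the second arm at D0 by 0.233, and a pair of CLASP2 microexons of 27 nucleotides was higher at D8 by 0.14 and 0.153.

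In NAV1 and NAV2, neuron navigators that bind microtubules, a 9-nucleotide microexon differs by A4T from NAV2 to NAV1. At D8 the NAV1 exon fell from 0.258, 0.224 and 0.186 to 0.0335, 0.0701 and 0.0542 (edgeR adjusted p 0.00268). The NAV2 exon was at 0.219, 0.181 and 0.184 in the first arm and 0.328, 0.312 and 0.328 in the second, a called difference of 0.128 (edgeR adjusted p 0.727). Both were called at D8 only.

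These were the 3 pairs with both exons called from the deposited FDR, and in each the directions were opposite. At D8, limma did not call the 3-nucleotide CLASP1 exon or the NAV2 exon (adjusted p 0.203 and 0.0688). Nor did edgeR (adjusted p 0.383 and 0.727). The pairs were found by comparing the printed windows of 718 coding microexons with equal length and at least 70% identity between genes, which gave 28 pairs. In 15 pairs at least 1 exon was called. Other called members of pairs were the 27-nucleotide exon of PTPRD, a receptor phosphatase of synapses, which was lower in the second arm at D0 by 0.183 and at D4 by 0.509. Its PTPRS counterpart was higher by 0.081 at D4, below the size a call needs. The 24-nucleotide exon of RAPGEF6 was lower at D4 by 0.272 and at D8 by 0.334, while that of RAPGEF2, both exchange factors for RAP GTPases, differed by -0.15 and 0.037 and was not called. The exon of FLNA, a filamin that crosslinks actin, was higher at D8 by 0.151 and in 293T by 0.193, and the FLNC exon, measured at D8, was at 1 in both arms. Differences within a pair were not tested against each other.

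**Figure D2:**
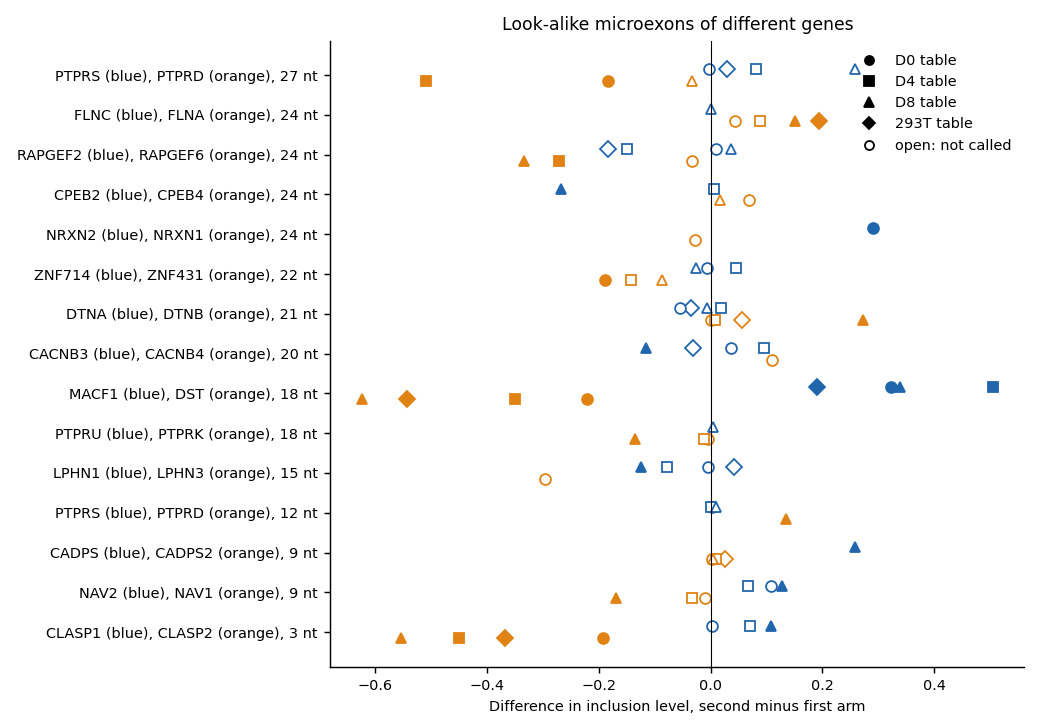
Difference in inclusion (second minus first arm, x axis) of the 15 pairs of look-alike microexons with at least 1 called exon; blue and orange are the 2 genes of a pair, symbols the tables, and filled symbols called events. DST lies between -0.624 and -0.222 and MACF1 between 0.19 and 0.505.

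Beside DST and CLASP2, a 22-nucleotide exon of RPS24, a protein of the small ribosomal subunit, was lower in the second arm of all 4 tables. It lies in the 3′ UTR of the matched transcript at chr10:79799962-79799983. RPS24 inclusion fell at D0 from 0.373, 0.37 and 0.38 to 0.0854, 0.0891 and 0.076 (edgeR adjusted p 2e-29), and at D8 from 0.961, 0.947 and 0.938 to 0.819, 0.825 and 0.792 (edgeR adjusted p 3.2e-13). The differences over D0, D4, D8 and 293T were -0.291, -0.241, -0.137 and -0.153, with non-overlapping arms. At D8 an 18-nucleotide RPS24 microexon was higher by 0.397. A 25-nucleotide form of RPS24, which ends at the same base as the 22-nucleotide exon, was lower by 0.146. RPS24 has near-identical copies in the genome, so its reads are uncertain.

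The exons higher in all 4 tables were those of MACF1, ROBO1, PPFIA3 and PHF21B. ROBO1, a receptor for SLIT guidance cues, was at 0.702, 0.63 and 0.625 in the first arm at D0 and 0.988, 0.97 and 0.971 in the second (edgeR adjusted p 1e-13). At D8 the ROBO1 exon was at 0.456, 0.558 and 0.493 against 0.973, 1 and 0.991 (edgeR adjusted p 2.4e-14). In ROBO1 the second arm was thus close to full inclusion in every table, with differences of 0.324, 0.359, 0.486 and 0.178 over D0, D4, D8 and 293T. PPFIA3, a liprin of presynaptic active zones, showed the reverse start: its 27-nucleotide exon was at or near 0 in the first arm. PPFIA3 inclusion at D4 was 0.0483, 0 and 0.0214 against 0.529, 0.377 and 0.412, and at D8 0, 0 and 0 against 0.441, 0.887 and 0.719, on means of 13.7 and 12.7 reads per library (edgeR adjusted p 0.00361 and 0.00017). PHF21B, a zinc finger protein related to PHF21A, was called with 10 to 47.3 reads per library. At D8 its libraries overlapped (0, 0.169 and 0 against 0.14, 0.129 and 0.363, edgeR adjusted p 0.626), and the PHF21B difference of 0.154 was 0.078 without the third library of the second arm.

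Ligand and receptor both carried called microexons. SLIT2, a ligand of ROBO1, has a 12-nucleotide exon that was higher in the second arm at D4, D8 and in 293T. At D8 it was at 0.116, 0.0717 and 0.0745 in the first arm and 0.677, 0.786 and 0.751 in the second (edgeR adjusted p 1.6e-13). The 24-nucleotide exon of SLIT2 was lower in the second arm, by 0.129 at D0 and 0.253 in 293T, and the D0 value was -0.0831 without the second library of the second arm. COL25A1, a transmembrane collagen, also had exons in opposite directions: its 27-nucleotide exon was lower by 0.4, 0.388 and 0.44 at D0, D4 and D8, and its 24-nucleotide exon higher by 0.477, 0.251 and 0.57. The D4 value of the 24-nucleotide COL25A1 exon was 0.151 without the second library of the first arm. Of 10 genes with more than 1 called microexon, CLASP1, MACF1 and TENM4 had only higher exons. CLASP2, COL25A1, DNM1, NAV1, PTPRD, RPS24 and SLIT2 had exons in both directions.

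Among the exons called in 3 tables were those of VPS29 and PICALM. VPS29, a retromer subunit that recycles receptors, has a 12-nucleotide exon that was at 0.0312, 0.0371 and 0.0239 in the first arm at D0 and 0.675, 0.671 and 0.673 in the second, on 1890 and 1740 reads per library (edgeR adjusted p 1.5e-65). At D4 the VPS29 exon was higher by 0.56 and at D8 by 0.731. In 293T it started at 0.719, 0.725 and 0.699, and its difference of 0.078 was not called. PICALM, a clathrin assembly protein, has a 24-nucleotide exon that was lower in the second arm at D0, at 0.863, 0.873 and 0.851 against 0.486, 0.469 and 0.5 (edgeR adjusted p 7.2e-08), and at D4, by 0.332. At D8 the PICALM arms overlapped (0.679, 0.671 and 0.727 against 0.686, 0.641 and 0.575). In 293T the PICALM difference was -0.116, and -0.0612 without the third library of the first arm. KIF21A, a kinesin motor, was lower at D0 by 0.43, at D4 by 0.583 and at D8 by 0.234. MON2, an endosomal scaffold, was higher by 0.263, 0.168 and 0.292. NCAM1, a neural cell adhesion molecule, has a 3-nucleotide exon that was lower by 0.243, 0.142 and 0.282; the D0 value was -0.138 without the second library of the second arm.

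**Figure D3:**
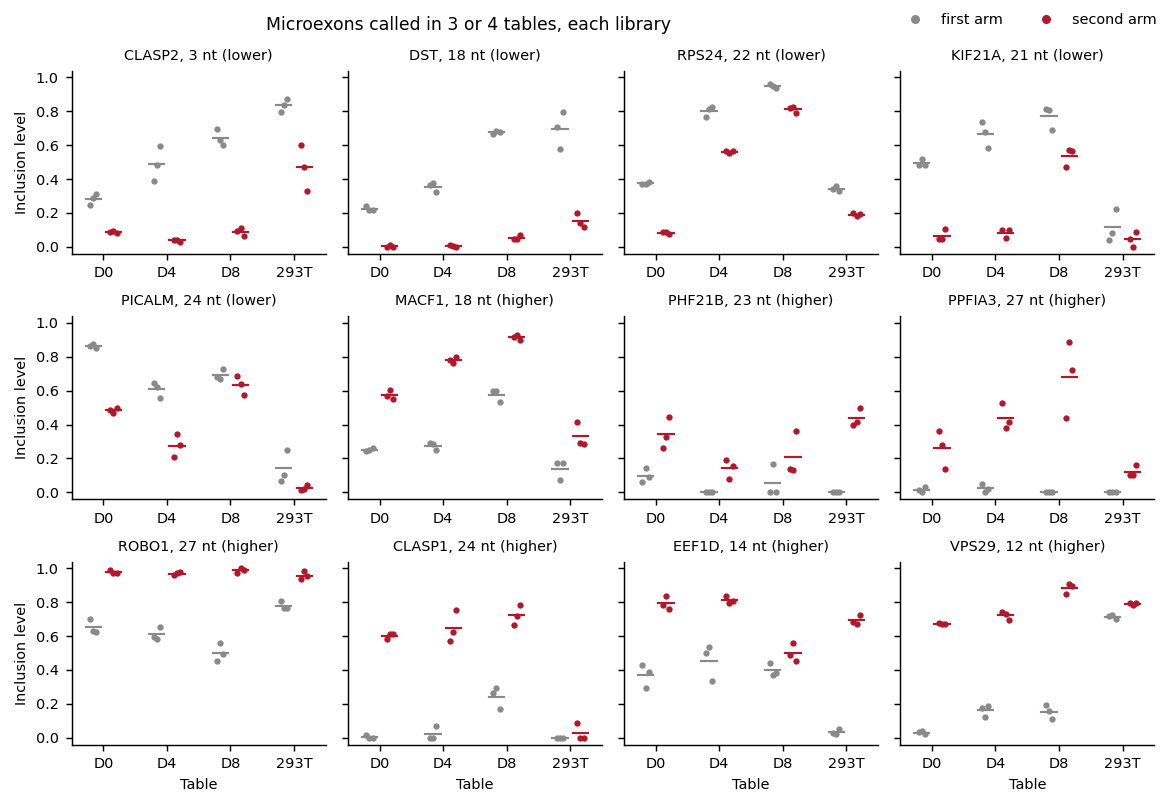
Inclusion level (y axis) in each library of the 4 tables (x axis) for 12 microexons called in 3 or 4 tables; grey points are the first arm, red the second, bars the means of 3 libraries. The 5 exons named lower (CLASP2, DST, RPS24, KIF21A, PICALM) have the red points below the grey in the tables where they were called; the DST red points do not exceed 0.197.

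The D0 table compares undifferentiated stem cells, and beside the exons above it had called differences in SRC, NFASC, TNIK, FSD1L, GK, KIF3A and ANK2. SRC, the tyrosine kinase whose neuronal form carries an 18-nucleotide exon in the SH3 domain, was at 0.0338, 0.013 and 0.0606 in the first arm and 0.298, 0.309 and 0.316 in the second (edgeR adjusted p 0.00151). NFASC, neurofascin, was at 0.391, 0.431 and 0.521 against 0.963, 0.865 and 0.917 (edgeR adjusted p 0.00207). TNIK, a kinase of the WNT and JNK pathways, rose from 0.151, 0.138 and 0.166 to 0.494, 0.505 and 0.505 (edgeR adjusted p 2.5e-05). FSD1L, a fibronectin-domain protein, rose from 0, 0 and 0 to 0.771, 0.874 and 0.555, on 13.3 and 35 reads (edgeR adjusted p 0.00028). Falls at D0 were those of GK, glycerol kinase (0.671, 0.633 and 0.683 against 0.185, 0.298 and 0.241, edgeR adjusted p 0.00026), and KIF3A, a kinesin of cilia (0.73, 0.77 and 0.825 against 0.49, 0.418 and 0.445, edgeR adjusted p 0.158). ANK2, ankyrin B, fell by 0.31 on 12.3 and 15.7 reads (edgeR adjusted p 0.698), and by 0.187 without the third library of the first arm.

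At D4, exons of AP1G1, PTPRD and COL4A5 were also called. AP1G1, a subunit of the AP-1 clathrin adaptor, has a 9-nucleotide exon that was at 0.462, 0.57 and 0.556 in the first arm and 0.107, 0.124 and 0.0576 in the second (edgeR adjusted p 0.00012). PTPRD stood at 0.762, 0.725 and 0.712 against 0.255, 0.23 and 0.187 (edgeR adjusted p 3.4e-05). COL4A5, a basement membrane collagen chain, has a 9-nucleotide exon that rose from 0.674, 0.704 and 0.677 to 0.967, 0.94 and 0.98 at D4 (edgeR adjusted p 3.7e-07) and by 0.671 at D8. Arms did not overlap in any of these, as in all 33 microexon events called at D4.

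At D8 the largest difference was that of SLC8A1, and exons of other heart muscle genes were called with smaller ones. SLC8A1, the sodium-calcium exchanger of heart muscle, has a 15-nucleotide exon that was at 0.979, 0.976 and 0.976 in the first arm and 0.00145, 0.0022 and 0.00119 in the second, on 1090 and 707 reads per library (edgeR adjusted p 1.2e-133). No other microexon event in the 4 tables moved as far. TRDN, triadin of the calcium release complex, was at 0.295, 0.397 and 0.381 against 0.0698, 0.0235 and 0.0726, and RYR2, the cardiac calcium release channel, at 0.384, 0.427 and 0.347 against 0.147, 0.202 and 0.132 (edgeR adjusted p 9.3e-06 and 0.0684). TNNT2, cardiac troponin T, has a 9-nucleotide exon that was at 0.491, 0.52 and 0.444 against 0.243, 0.268 and 0.29, on 12900 and 28600 reads (edgeR adjusted p 1.3e-05). FHOD3, a formin of the cardiac sarcomere, fell from 0.386, 0.492 and 0.363 to 0.0073, 0.00428 and 0.00484 (edgeR adjusted p 8.9e-35). DOCK9, an exchange factor for CDC42, fell in a 6-nucleotide exon from 0.85, 0.768 and 0.748 to 0, 0.119 and 0 (edgeR adjusted p 9.4e-05). In none of these 6 genes did the arms overlap, as in 107 of the 114 microexon events called at D8.

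MEF2D, KCNH7, RYR1, CACNA2D3, CACNB1 and CAPN3 had microexons that were higher in the second arm at D8. MEF2D, a transcription factor of muscle genes, has a 21-nucleotide exon that was at 0.0898, 0.0945 and 0.0375 in the first arm and 0.818, 0.818 and 0.899 in the second (edgeR adjusted p 3.7e-33). The same MEF2D exon was at or below 0.112 in each library at D0 and D4, and called in 293T with a difference of 0.112. KCNH7, a potassium channel, was at 0.0169, 0.248 and 0.032 against 0.968, 0.964 and 0.939 (edgeR adjusted p 4.8e-20), and RYR1, the skeletal muscle calcium release channel, at 0.105, 0.045 and 0 against 0.79, 0.679 and 0.884 (edgeR adjusted p 3.3e-06). CACNA2D3 and CACNB1, auxiliary subunits of voltage-gated calcium channels, were higher by 0.612 and 0.448 (edgeR adjusted p 0.00966 and 0.0302). CAPN3, a muscle calpain, was at 0.709, 0.828 and 0.748 against 0.953, 0.962 and 0.945 (edgeR adjusted p 5.4e-08). RYR2, CACNB1 and CAPN3 were named after their values were seen.

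Marker levels of several cell types differed between the genotypes in the gene counts. At D8 the summed level of 8 cardiomyocyte markers was 9000 to 16000 CPM in the WT libraries and 25200 to 29500 in those labelled KO, and that of 5 surface ectoderm and amnion markers was 451 to 892 and 10.6 to 19. Pluripotency markers (6 genes) summed to 1230 to 1590 in WT and 472 to 566 in KO, and endothelial markers (4 genes) to 248 to 299 and 577 to 616. At D4 the highest sum of the endoderm markers (5 genes) was 85.9 in WT and 220 in KO. The endothelial markers at D4 summed to 175 to 208 and 381 to 426, and the surface ectoderm and amnion markers to 32.7 to 64.6 and 10.4 to 13.5. In nuclear RNA the D8 cardiomyocyte sums were 3820 to 4910 in WT and 14200 to 16700 in KO. The nuclear surface ectoderm and amnion sums were 482 to 777 and 149 to 398, a smaller gap than in whole-cell RNA. The nuclear endoderm sums were 14.8 to 17.9 and 178 to 466, a wider gap than the 71.3 to 116 and 117 to 136 of whole-cell RNA at D8. The 10 neuron markers summed to 36.1 to 37.8 CPM in WT and 36.5 to 40.6 in KO at D8, with ELAVL3 and NEUROD1 under 1 CPM in both. Of the 4 skeletal muscle markers, MYF5, MYOD1 and MYOG were under 1 CPM in whole-cell RNA of both genotypes. With ACTA1, the remaining marker, the 4 summed at D8 to 65.9 to 81 CPM in WT and 26 to 37.8 in KO. The part of these markers in the D4 and D8 microexon differences was not tested.

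**Figure D4:**
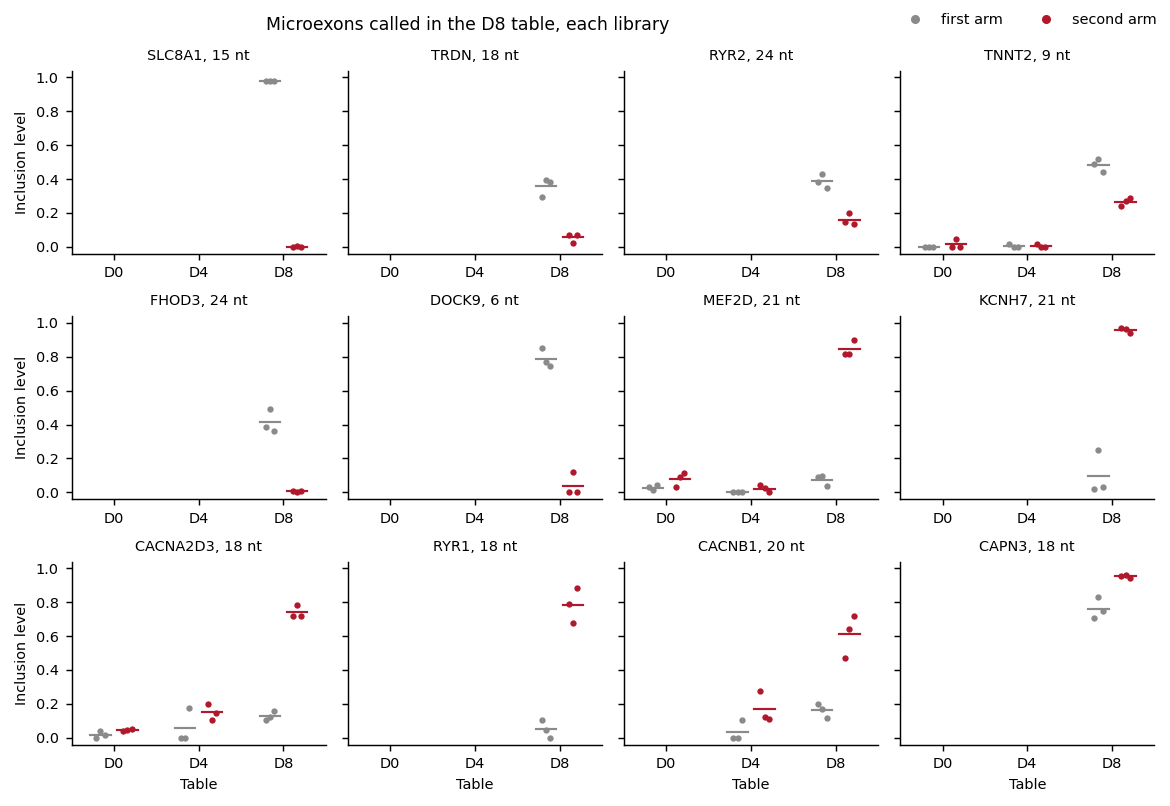
Inclusion level (y axis) in each library of the D0, D4 and D8 tables (x axis) for 12 microexons called at D8; grey points are the first arm, red the second, bars the means of 3 libraries, and an empty column an exon below the read minimum. SLC8A1 spans 0.979 to 0.00119 and MEF2D 0.0375 to 0.899 at D8.

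In 293T cells 22 exons were called. EEF1D, a translation elongation factor subunit, has a 14-nucleotide exon in the 5′ UTR that was at 0.0296, 0.0251 and 0.051 in the first arm and 0.682, 0.673 and 0.727 in the second (edgeR adjusted p 4.1e-31). This was the largest difference of a microexon in 293T. The EEF1D exon was also higher at D0 by 0.424 and D4 by 0.357, but at D8 its libraries were at 0.441, 0.369 and 0.382 against 0.486, 0.557 and 0.455 and it was not called. CAMTA2, a calmodulin-binding transcription activator, rose from 0, 0 and 0 to 0.221, 0.25 and 0.277 (edgeR adjusted p 4.2e-07), and MTA1, a subunit of the NuRD complex, from 0.0511, 0.0277 and 0.0681 to 0.258, 0.358 and 0.254 (edgeR adjusted p 3.3e-10). KIF1A, an axonal kinesin, rose from 0.195, 0.208 and 0.211 to 0.489, 0.487 and 0.578 (edgeR adjusted p 0.00606). ACOT9, a mitochondrial acyl-CoA thioesterase, fell from 0.535, 0.577 and 0.501 to 0.086, 0.158 and 0.224 (edgeR adjusted p 0.0003).

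Genes long known to carry microexons were represented by 89 exons in 51 of 71 listed genes. Of these exons, 28 in 22 genes were called in at least 1 table. At D0, 8 were higher and 8 lower of 66 exons (24.2%), at D4 6 and 5 of 51 (21.6%), at D8 11 and 8 of 75 (25.3%), and in 293T 5 and 2 of 38 (18.4%). The shares over all microexons, 1 event per exon, were 7.62%, 5.38%, 12.8% and 5.57%. The list was written with earlier results of these data known and is no independent evidence. Its members include DST, MACF1, CLASP1, CLASP2, ROBO1, MEF2D, NCAM1 and PTPRD, described above, and SPTAN1, a spectrin whose 15-nucleotide exon was lower in the second arm by 0.125 at D0 and 0.329 at D8. The list median of the difference was 0.002, 0.005, 0.001 and 0.025 in the 4 tables in that order.

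Inclusion of microexons rose more often than it fell from D0 to D8. The change was fitted with limma on 38653 events matched over the 3 Hues6 tables, of which 517 were microexon events. In the first arm 66 (12.8%) rose and 12 (2.32%) fell by at least 0.1, against 3.22% and 1.66% of all events. In the second arm 88 (17%) rose and 15 (2.9%) fell, against 4.56% and 2.03%. Of the 464 microexons, 69 were called in the first and 96 in the second arm, 45 in both, and 44 of those in the same direction. Skipping junctions were counted over 150 nucleotides in the D0 table and 100 in the D4 and D8 tables, so day and read length cannot be told apart.

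MEF2A, PDLIM5 and CAMK2G showed the same course in both arms. MEF2A, a muscle transcription factor, rose on average from 0 at D0 to 0.453 at D8 in the first arm and from 0.00663 to 0.547 in the second (limma adjusted p 2.9e-08 and 1.5e-08). PDLIM5, a Z-disc protein, rose from 0.0113 to 0.628 and from 0.00383 to 0.556. CAMK2G, a subunit of CaM kinase II, rose from 0.345 to 0.803 and from 0.332 to 0.868, most of it by D4 (0.772 and 0.825). In DST and CLASP2 the first arm rose, by 0.452 and 0.363, and the means of the second arm were between 0.00281 and 0.09. On the logit scale the arm difference changed from D0 to D8 in CLASP2 (limma adjusted p 0.0136) and was not called for DST (limma adjusted p 0.505). The second arm of DST lay under the bound of 0.01 in each D0 library, so this test cannot contrast the exons. In inclusion, the arm difference went from -0.222 to -0.624 in DST and from -0.192 to -0.554 in CLASP2. PTPRD reached 0.917 in the first and 0.883 in the second arm at D8, from 0.733 and 0.224 at D4.

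The difference between arms itself changed from D0 to D8 in 31 microexons, 20 towards higher inclusion (3.87% of events) and 11 towards lower (2.13%), against 1.05% and 0.572% of all events. Unlike the calls by day, this one asked for no minimum size. Some of the 31 shifted by less than 0.1 in inclusion, the least being TRIM27 at 0.00879. Among the 31, MEF2D had the largest change in inclusion: its arms differed by 0.049 at D0 and by 0.771 at D8 (limma adjusted p of the change 0.0251). CTNND1, p120 catenin of cell junctions, was at 0.0323 and 0.0255 in the 2 arms at D0 and at 0.39 and 0.735 at D8 (limma adjusted p 0.00157). NSFL1C, a cofactor of the p97 ATPase, was at 0.138 and 0.162 and then at 0.518 and 0.776 (limma adjusted p 0.0155). In PICALM the second arm came closer to the first, from 0.862 and 0.485 at D0 to 0.692 and 0.634 at D8 (limma adjusted p 0.00215).

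DNM1 and SNX14 were called in opposite directions at D0 and D8. DNM1, the neuronal dynamin of endocytosis, has a 12-nucleotide exon at chr9:131010203-131010214 that was at 0.663, 0.719 and 0.62 against 0.449, 0.408 and 0.349 at D0, and at 0.844, 0.749 and 0.645 against 0.909, 0.86 and 0.926 at D8. The change of the DNM1 difference had a limma adjusted p of 0.00709. SNX14, a sorting nexin, has a 27-nucleotide exon that was at 0.573, 0.65 and 0.646 against 0.479, 0.425 and 0.532 at D0 and 0.821, 0.773 and 0.728 against 0.866, 0.901 and 0.922 at D8 (limma adjusted p 0.00631). At D4 neither was called, and the edgeR test called neither at D0 or D8 (adjusted p 0.652 and 0.727 for DNM1, 0.698 and 0.146 for SNX14). Both exons rose with the day in the second arm.

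**Figure D5:**
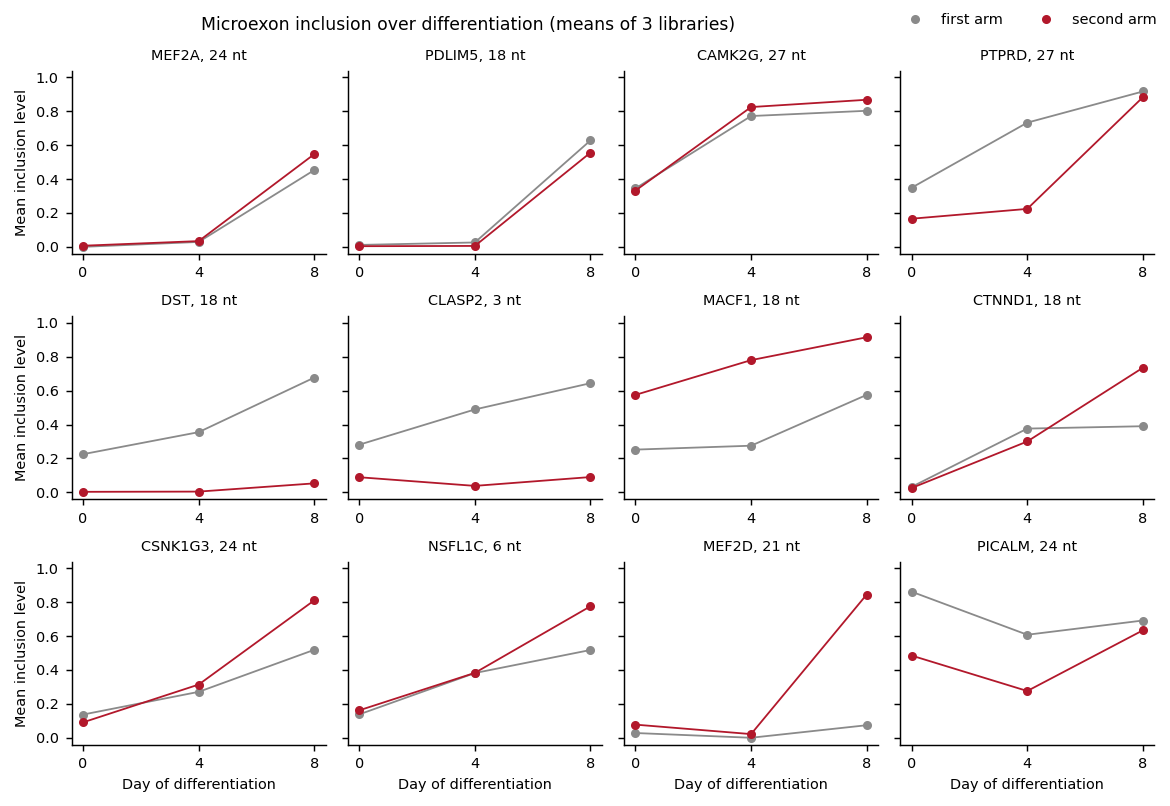
Mean inclusion level of 3 libraries (y axis) at days 0, 4 and 8 (x axis) for 12 microexons; grey is the first arm, red the second. MEF2A, PDLIM5 and CAMK2G rise in both arms, and the second arm of DST stays at or below 0.0527.

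The genes that act on microexons were read from the gene counts with edgeR, KO against WT. Of 40 listed regulators, 11 were higher and 6 lower at D0, where 21.4% and 20.9% of 21761 genes were called higher and lower. At D4, 5 were higher and 10 lower (all genes 16.3% and 12%), and at D8 12 and 11 (29.4% and 26.2%). In nuclear RNA at D8, 28 were higher and 7 lower (31.2% and 32.8% of 30481 genes). The median log2 fold change of the list was 0.04, -0.10, 0.01 and 0.69 in that order, beside -0.01, 0.00, 0.01 and -0.27 for all genes.

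SRRM4, the neuronal microexon activator, was low throughout. It was at 3.4 ± 0.255 CPM in WT and 3.1 ± 0.344 in KO at D0 (SD, n = 3; edgeR adjusted p 0.514). At D8 SRRM4 was at 0.785 ± 0.102 in WT libraries and 1.45 ± 0.161 in those labelled KO (edgeR adjusted p 0.00017), and in nuclear RNA at 13.6 ± 1.1 and 8 ± 1.43, the opposite direction (edgeR adjusted p 0.00021). Within the RBFOX and MBNL families, which act in muscle splicing, members moved in both directions at D8. RBFOX1 stood at 9.02 ± 2.07 CPM in WT libraries and at 29.8 ± 5.71 in those labelled KO, and RBFOX2 at 457 ± 50.6 and 835 ± 31.4. RBM24 was at 85 ± 17.9 and 173 ± 20.9, and MBNL1 at 9.78 ± 0.464 and 21.9 ± 2.41 CPM. MBNL3 was lower, at 15.4 ± 2.52 in WT and 5.18 ± 1.47, as was RBFOX3, at 1.12 ± 0.142 and 0.476 ± 0.0652, and MBNL2 was not called (log2 fold change -0.22, SE 0.11). ESRP1, an epithelial splicing factor, was also lower, at 110 ± 10.8 in WT and 42.2 ± 8.03. In nuclear RNA at D8, MBNL3 and MBNL2 were higher in KO (log2 fold changes 0.86 and 0.50, edgeR adjusted p 1.3e-05 and 0.0114). ESRP1 was not called there (0.06, edgeR adjusted p 0.753). RBFOX1, RBFOX2, RBM24, MBNL1 and RBFOX3 kept their direction in nuclear RNA. At D0, RBM10, a repressor of cassette exons, was at 86.7 ± 2.66 in WT and 147 ± 6.41 in KO. In bulk RNA, fewer cells of a type and less RNA per cell cannot be told apart.

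The genes that host called microexons changed by less than 2-fold at D0, and all but 1 did at D4. Of 52 host genes tested at D0, 16 were higher and 15 lower in KO, with 0 changed 2-fold, beside 198 higher and 137 lower of all 616 genes with a microexon. At D4, 8 were higher and 6 lower of 30, and 1 changed 2-fold, beside 107 and 76 of 516. At D8, 47 were higher and 18 lower of 90, and 14 changed 2-fold, beside 281 and 148 of 664, with a median log2 fold change of 0.21 beside 0.09. In nuclear RNA 72 of the 90 were higher and 6 lower, and 41 changed 2-fold, beside 509 and 39 of 664 (median 0.97 beside 0.75). DST had a log2 fold change of -0.16 (SE 0.10) at D0 and -0.38 (SE 0.10) at D8, and MACF1 of 0.04 (SE 0.08) and 0.38 (SE 0.08). KCNH7 and FHOD3 were higher at D8 by 2.32 (SE 0.14) and 1.51 (SE 0.12).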

How the data were processed

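The authors deposited counts of reads per gene for 18 whole-cell and 6 nuclear libraries, with no normalisation, and 4 skipped-exon tables in rMATS format with junction counts, inclusion fractions, p-values and FDR. The build hg19 and the tools STAR, cutadapt, UMI-tools, DESeq and featureCounts come from the submitters' processing notes. Their versions, and that of rMATS, are not given there. Inclusion per library was recomputed from the deposited junction counts and form lengths. limma 3.58.1 was run on logit inclusion (bounded at 0.01), and edgeR 4.0.16 (R 4.3.3) on inclusion and skipping counts with a term per library, each over all events of a table and Benjamini-Hochberg adjusted. Gene counts were fitted with edgeR (filterByExpr, TMM, quasi-likelihood test). An adjusted p under 0.05 was called. The scripts were tested on simulated data. Junction lengths differed between tables, so tests were made within tables except by day. No 293T gene counts were analysed here.

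The text names exons and genes from several sets, and not every member of each set. The sets are, per table, up to 10 exons higher and 10 lower by size, and exons called in several tables or in opposite directions. They also hold exons changing by day, look-alike pairs, and members of listed hosts and regulators. The members and lists were chosen with earlier results of these data known. Intron sequence was not used here. Alternatives were read minimum, difference, test, bound, single libraries, DESeq2 1.42.0 and a replicate block.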

Additional observations from a re-analysis of the deposited data

Results flagged for a closer look

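The difference between the arms changed from D0 to D8, by the limma interaction on the logit scale (adjusted p under 0.05), for 31 microexons. Each value is the D8 difference in inclusion minus the D0 difference, second arm minus first. The shift was towards higher inclusion in the second arm for MEF2D (0.721), the 12-nucleotide SLIT2 exon (0.529), DNM1 (0.417), CTNND1 (0.351) and CSNK1G3 (0.339). It was also so for PICALM (0.32), SNX14 (0.267), NSFL1C (0.234), AP1B1 (0.227), PRPF18 (0.225), RHOC (0.175) and a 27-nucleotide CLASP2 exon (0.157). Smaller shifts in this direction were those of ABI2 (0.153), SUPT5H (0.151), SIDT2 (0.132), FLNA (0.108), DYNC1I2 (0.048), MACF1 (0.0171), SPTAN1 of 18 nucleotides (0.0161) and TRIM27 (0.00879).

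The shift was towards lower inclusion for the 3-nucleotide CLASP2 exon (-0.362), EEF1D (-0.322), the 15-nucleotide SPTAN1 exon (-0.205), USO1 of 21 nucleotides (-0.145), PTPRK (-0.131), MARK3 (-0.124) and HNRNPC (-0.111). ABI1 (-0.0932), SEPT2 (-0.0384), USO1 of 12 nucleotides (-0.0366) and VDAC3 (-0.0334) shifted by less than 0.1. Read length differed between the D0 and D8 tables and cannot be told apart from the day.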

How the results depend on the processing

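Counts of called microexons depended on the test and on the size of difference asked for. With limma on logit inclusion they were 10 higher and 7 lower at D0, 4 and 3 at D4, 21 and 13 at D8 and 7 and 2 in 293T. With edgeR on junction counts they were 15 and 9 at D0, 9 and 10 at D4, 44 and 21 at D8 and 11 and 4 in 293T. At a difference of 0.2 they were 22 higher and 17 lower at D0, 13 and 10 at D4, 42 and 27 at D8 and 9 and 5 in 293T. With levels bounded at 0.05, limma called 7 higher and 4 lower at D0, 3 and 1 at D4, 15 and 8 at D8, and 1 and 0 in 293T.

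Leaving out 1 library at a time, limma called 4 to 8 higher and 3 to 6 lower at D0, 1 to 6 and 2 to 5 at D4, 7 to 11 and 6 to 10 at D8, and 4 to 8 and 0 to 2 in 293T. The D8 count of 21 higher was 7 without the second library of the first arm. From D0 to D8 it called 57 to 69 in the first arm, 88 to 97 in the second and 23 to 29 changes of the arm difference. Regulators called numbered 14 to 17 at D0, 9 to 15 at D4 (9 without WT replicate 2), 20 to 26 at D8 and 31 to 34 in nuclear RNA.

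With a replicate block, 16, 16, 20 and 33 regulators were called at D0, D4, D8 and in nuclear RNA. Same-numbered libraries showed no clear shared deviation from their group means (correlations from -0.167 to 0.141). The main fits therefore did not pair them, and whether they were prepared together is not known. No paired analysis was possible because the arms of the splicing tables carry no replicate numbers. Of 140 named called events, 0 changed direction in 980 alternatives. Where the arms do not overlap, leaving out a library cannot reverse the sign. Most called events were of this kind, so for single libraries the 0 is no added support. Without a library, the differences ranged from 0.309 to 1.6 times the full value. Both ends were PHF21A at D0 (0.142 in full, 0.0439 and 0.227 without the first or the third library of the first arm). Events near 10 reads and the small arms limit what could be called.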
